A study of Mus musculus with 14 samples.

Results

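The 10 adipocyte genes Cfd, Adipoq, Lep, Retn, Plin1, Plin4, Cidec, Lpl, Fabp4 and Pparg were followed in bulk RNA-Seq of murine esophageal stroma and of peeled epithelium. They were the rows of the 14 count tables whose symbol equals one of these names, 10 of the 55291 genes listed per sample. All animals were wild type C57BL/6 mice without treatment, and the labels give their sex for 3 of the 9 only. Epithelial sheets came from 5 aged mice (at least 18 months old by the series text) and 4 young mice (at most 4 months old). Stroma was available from 5 of these animals, the aged O1, O2 and O3 and the young Y1 and Y3. OF5 and OM8 (aged) and YF5 and YM4 (young) gave epithelium only. The stroma is the tissue that was pulled off the epithelium with forceps, so that a stromal sample holds whatever adhered to the muscle coat, and how much fat was left on it is not given in the sources used here.

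Adipocytes store triglyceride in a large lipid droplet and release hormones into the blood. PPARgamma, encoded by Pparg, is the transcription factor that drives their differentiation, and it acts as a partner of RXR at the enhancers of many genes of lipid storage. In the esophagus, fat cells lie in the connective tissue around the muscle coat and not in the squamous epithelium. Several of the 10 genes are not restricted to fat: Lpl and Plin4 are also made by striated muscle, Fabp4 by capillary endothelium and macrophages, and Pparg by squamous epithelium and macrophages.

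Upstream sequence was read for 8 of the 10 genes from RefSeq (GRCm38.p6), in 11 windows of 250 bases before an annotated start. Fabp4 and Lpl had no entry. The windows of Adipoq, at chr16:23146286-23146535, and of Lep, at chr6:29059971-29060219, both on the plus strand, are shown 5′ to 3′ because they carry the matches named after them. In Adipoq the capitals mark CCAAT or its reverse complement ATTGG, and in Lep they mark the palindrome TTGCGCAA, a sequence bound by C/EBP factors.
Adipoq: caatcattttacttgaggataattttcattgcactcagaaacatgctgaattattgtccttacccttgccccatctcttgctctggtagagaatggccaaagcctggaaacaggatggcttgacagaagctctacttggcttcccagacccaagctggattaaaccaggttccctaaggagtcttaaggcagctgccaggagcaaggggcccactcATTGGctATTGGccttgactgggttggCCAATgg
Lep: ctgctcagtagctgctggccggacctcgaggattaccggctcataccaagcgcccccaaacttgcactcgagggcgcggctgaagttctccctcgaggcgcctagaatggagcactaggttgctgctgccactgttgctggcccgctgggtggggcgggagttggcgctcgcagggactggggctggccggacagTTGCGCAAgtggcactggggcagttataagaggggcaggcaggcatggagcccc

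TTGCGCAA began 55 bases before the RefSeq start of Lep, whose window is printed without its last base because the GENCODE gene begins there. It was in 0.164% of the 32851 mouse promoter windows of the same length, searched on both strands. CCAAT was in windows of Adipoq, Plin4 and Pparg and in 33.8% of all windows, and in Adipoq it occurred 3 times, the nearest beginning 7 bases before the start. The exact element of PPARgamma and RXR, a direct repeat of AGGTCA with 1 base N between the repeats, was in 0 of the 11 windows and in 0.0335% of all windows. AGGTCA alone, which is part of that element, was in 2 windows of Pparg and in 14% of all windows. These matches describe letters in the sequence only.

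Before the genes are described, the samples need a short account. Total counts ran from 13257833 to 15644580 per stromal sample and from 8217516 to 21867101 per epithelial sample. The epithelia of OF5, OM8, YF5 and YM4 held 1042394 to 1433857 protein-coding counts each, against 6665526 to 11067320 in the other 10 samples, so low genes were measured less precisely in these 4. Genes of repeated RNA took 70.8 to 80.9% of their counts, against 32.1 to 43.7% in the other epithelia. Their 7 keratinocyte genes summed to 17001 to 27772.7 normalized counts (defined below), against 41546.1 to 54042.5 there. These 4 samples thus differed in more than depth, and they entered the layer comparison on the epithelial side only. The stromal label fits 2 lists of layer markers: all 12 skeletal muscle genes tested were higher in stroma and all 7 keratinocyte genes were lower. Fibroblast and smooth muscle genes separated less, with 3 of 6 and 2 of 5 higher in stroma and 0 lower. Their sums overlapped, at 280 to 632 in epithelium and 415 to 1031 in stroma for fibroblasts. For smooth muscle they were 333 to 835 and 303 to 2051, so the peeled sheets also held RNA of these lists. Values below are normalized counts, that is CPM computed after scaling each library by TMM, and 3 counts correspond to 0.0872 to 1.25 normalized counts depending on the sample.

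Adipocyte genes were expressed in all 5 stromal samples. In epithelium, Cfd, Adipoq, Plin1, Lep, Retn and Cidec were at or near the detection limit, while Plin4, Lpl, Fabp4 and Pparg were low but measured, at means of 4.37, 3.69, 1.31 and 1.12 normalized counts. All 10 were differentially expressed genes (DEGs) higher in stroma (edgeR's quasi-likelihood test, Benjamini-Hochberg adjusted p under 0.05), where 30.1% of the 16791 genes tested were called in this direction, 26.1% in the other and 56.2% in either. Their median log2 fold change was 6.63, beside 0.05 over all genes tested. For 9 of the 10, all but Pparg, the lowest stromal sample lay above the highest epithelial sample, which held for 16.9% of all genes. The same 9 were called with a difference of at least 16-fold, as were 3.39% of all genes. A higher level in bulk tissue cannot be told apart from more cells of a type, since fewer cells and less RNA per cell give the same counts.

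**Figure D1:**
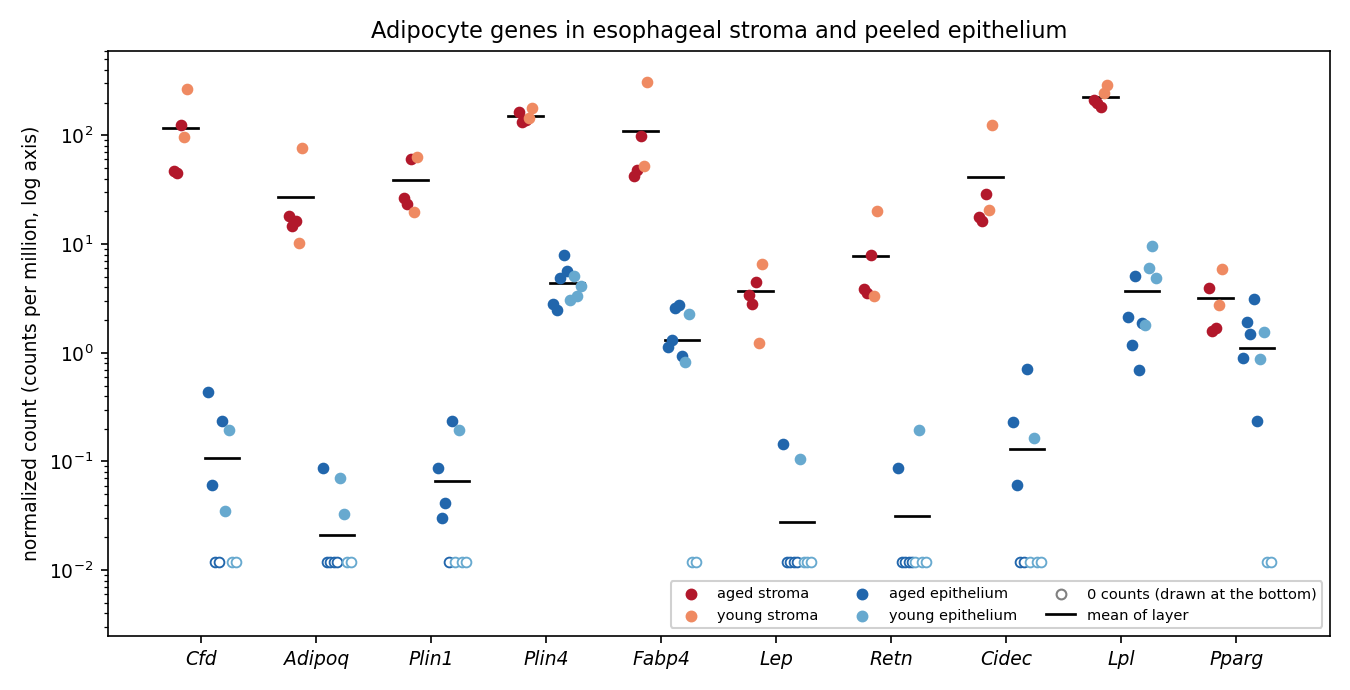
Normalized counts (log axis) of the 10 genes in each of the 5 stromal and 9 epithelial samples, coloured by layer and age, with the mean of each layer as a line and samples at 0 counts as open circles. The stromal points lie above all epithelial points for every gene but Pparg, and the young sample Y3 is the highest stromal point for each gene.

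The 4 secreted products were led by Cfd, which encodes adipsin (complement factor D), the protease that starts the alternative complement pathway. Cfd (chromosome 10, 79890853 to 79892655 in GRCm38) had 47.3, 45.5 and 125 normalized counts in stroma of O1, O2 and O3 and 96.0 and 265 in Y1 and Y3. In epithelium it ran from 0 through a median of 0.0354 to 0.436. Every stromal sample was above every epithelial one by a wide margin, with Y3 the highest and O1 and O2 the lowest. The means were 116 ± 90.0 (SD, n = 5) and 0.107 ± 0.152 (SD, n = 9), a log2 fold change of 9.55 (SE 0.62, adjusted p = 2.53e-09 by edgeR). Of all 16791 genes tested, no log2 fold change was higher than that of Cfd.

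Adipoq (chromosome 16, 23146536 to 23158028) encodes adiponectin, a hormone that raises fatty acid oxidation and insulin sensitivity. Its stromal levels were 18.1, 14.6 and 16.3 normalized counts in O1, O2 and O3, 10.2 in Y1 and 76.2 in Y3. Epithelium reached at most 0.0872, with a median of 0, and 6 of 9 samples had no count. Y3 stood apart from the other 4 stromal samples, which lay within 1.78-fold of each other. The log2 fold change was 9.31 (SE 0.63, adjusted p = 5.39e-10 by edgeR), with only 6 epithelial counts behind it.

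Lep (chromosome 6, 29060220 to 29073877) encodes leptin, the hormone that reports fat stores to the hypothalamus, and Retn (chromosome 8, 3655770 to 3660110) encodes resistin, which in mice is made by adipocytes. Lep was low, at 3.38, 2.83 and 4.44 normalized counts in O1, O2 and O3 and 1.24 and 6.58 in Y1 and Y3, and at most 0.145 in epithelium (median 0). Retn was at 3.85, 3.57, 7.92, 3.35 and 20.1 in O1, O2, O3, Y1 and Y3, and at most 0.196 in epithelium (median 0). For both hormones the young samples Y1 and Y3 were the lowest and the highest of the 5, with all aged samples between them. The log2 fold changes between the layers were 6.14 (SE 0.73, adjusted p = 4.54e-07) for Lep and 7.03 (SE 0.70, adjusted p = 4.16e-08) for Retn in the same edgeR test.

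Among the lipid droplet proteins, Plin1 (chromosome 7, 79720218 to 79732903) encodes perilipin 1, which coats the droplet and holds lipases off it. Plin1 had 26.3, 23.3 and 60.2 normalized counts in stroma of O1, O2 and O3 and 19.7 and 63.3 in Y1 and Y3, and 0, 0.0303 and 0.236 as the lowest, median and highest epithelial values. O3 and Y3 were nearly level and were the highest. Its log2 fold change was 8.92 (SE 0.46, adjusted p = 6.20e-12).

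Cidec (chromosome 6, 113424634 to 113435760) encodes the protein, also known as FSP27, that fuses small droplets into the large one of white fat. It had 17.7, 16.4 and 28.7 normalized counts in O1, O2 and O3, 20.6 in Y1 and 125 in Y3, and at most 0.707 in epithelium (median 0). As with Adipoq, Y3 alone was high: it was 4.37 times the next stromal sample, while the other 4 lay within 1.75-fold. The log2 fold change between the layers was 8.47 (SE 0.74, adjusted p = 9.65e-08).

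Plin4 (chromosome 17, 56100591 to 56109803), a perilipin of small droplets, was the steadiest of the 10. Its stromal levels were 164, 132 and 139 normalized counts in O1, O2 and O3 and 144 and 178 in Y1 and Y3, a 1.35-fold range. Epithelium was at 2.45 to 7.92, with a median of 4.15, and none of its 9 samples was at 0. The layers did not overlap, and the epithelial mean was 2.89% of the stromal one, against 0.0783% for Adipoq. The log2 fold change of 5.18 (SE 0.23, adjusted p = 7.53e-13) was smaller than for Plin1 and Cidec, while its standard error was the smallest of the 10.

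Of the genes that handle fatty acids, Lpl (chromosome 8, 68880491 to 68907448) encodes lipoprotein lipase, which frees fatty acids from circulating lipoproteins. It had 213, 197 and 183 normalized counts in stroma of O1, O2 and O3 and 245 and 292 in Y1 and Y3, and 0.689, 2.12 and 9.58 as the lowest, median and highest epithelial values. Like Plin4 it varied little between stromal samples, and both young samples were above all 3 aged ones. The log2 fold change between the layers was 6.02 (SE 0.44, adjusted p = 3.61e-09).

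Fabp4 (chromosome 3, 10204088 to 10208576) encodes the adipocyte fatty acid carrier also known as aP2. It had 42.5, 48.5 and 98.7 normalized counts in O1, O2 and O3 and 51.8 and 306 in Y1 and Y3. In epithelium it ran from 0 to 2.76 with a median of 1.13, and was above 0 in 7 of the 9 samples. Y3 was 3.11 times the next sample, O3. The log2 fold change was 6.22 (SE 0.58, adjusted p = 3.20e-07).

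Pparg (chromosome 6, 115360951 to 115490399) was low in both layers. It had 3.97, 1.60 and 1.68 normalized counts in stroma of O1, O2 and O3 and 2.73 and 5.91 in Y1 and Y3, against 0 to 3.10 with a median of 0.901 in epithelium. The layers overlapped, and the epithelial mean was 35.2% of the stromal mean. Its log2 fold change of 1.43 (SE 0.55, adjusted p = 0.0329) passed the threshold in the fit of all 14 samples. In the 5 mice with both layers and mouse as a block, Pparg was not called (log2 fold change 1.01, adjusted p = 0.161), nor was it without the stroma of Y3 (1.11, adjusted p = 0.133). The other 9 genes remained DEGs in both of these fits.

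**Figure D2:**
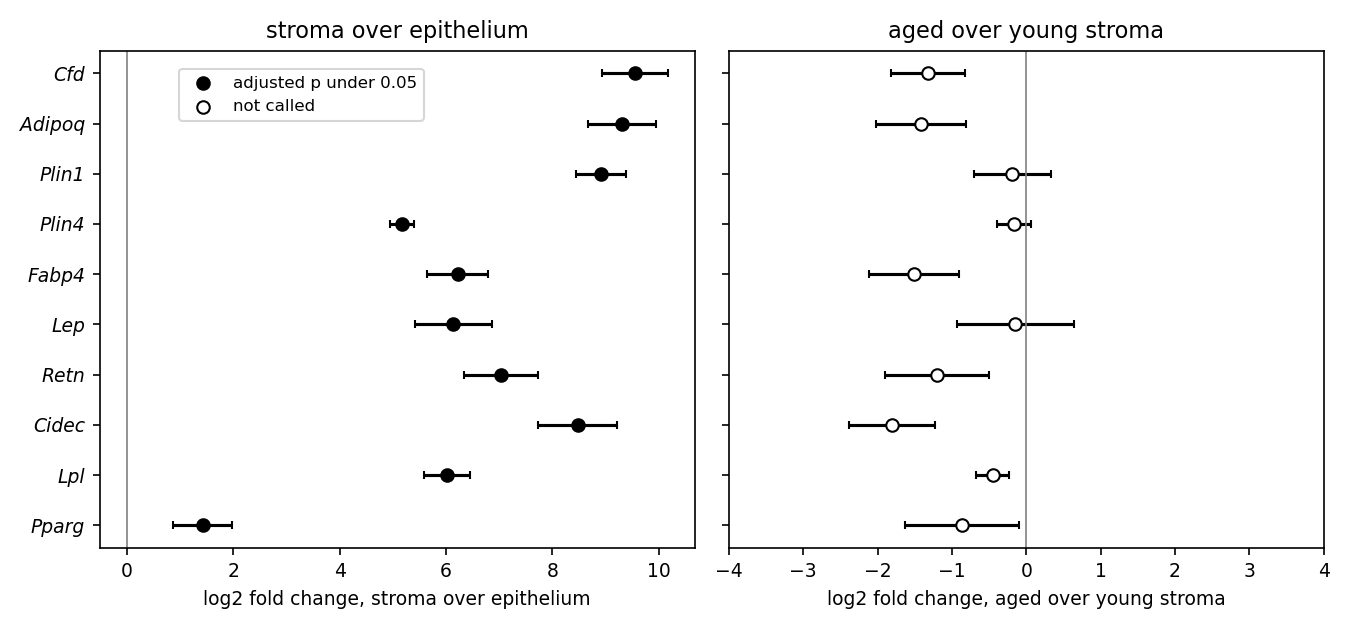
Log2 fold change with its SE for each of the 10 genes, for stroma over epithelium (left, 5 against 9 samples) and for aged over young stroma (right, 3 against 2 samples); filled points are DEGs. The layer difference is called for each gene and is smallest for Pparg, at 1.43, and the age difference is called for none.

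Levels of different genes were compared only per kilobase of their longest principal transcript. Cfd, at 126 ± 97.7 normalized counts per kilobase in stroma, and Fabp4, at 122 ± 125, did not differ beyond their spread (SD, n = 5), and Lpl, at 54.9 ± 10.6, lay within the spread of both. Plin4, Cidec and Adipoq came next, at 26.3 ± 3.34, 24.3 ± 27.3 and 20.9 ± 21.4, and did not differ beyond their spread, nor did Plin1 at 13.7 ± 7.58 and Retn at 6.82 ± 6.29. Pparg (1.80 ± 1.02) and Lep (1.13 ± 0.608) were the lowest. With the length of all exons of the gene, which for Fabp4 spans the whole gene, the value of Fabp4 was 24.4 and that of Lpl 21.6 per kilobase, so the places of these genes in the order rest on the length used.

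The spread between stromal samples had a clear form. Each of the 10 genes was highest in Y3, the sample that was highest for 14.4% of the 16791 genes tested. O3 was second for Cfd, Plin1, Fabp4, Lep, Retn and Cidec, but next to lowest for Plin4 and Pparg and lowest for Lpl. The ratio of Y3 to Y1, the other young mouse, ran from 1.19 for Lpl and 1.24 for Plin4 to 7.50 for Adipoq, with Cidec at 6.08, Retn at 6.00 and Fabp4 at 5.92. Without Y3, the highest sample was O3 for 6 genes, O1 for Adipoq, Plin4 and Pparg, and Y1 for Lpl, and the fold range over the remaining 4 samples was at most 3.58 (Lep). These counts were made after the values had been seen.

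**Figure D3:**
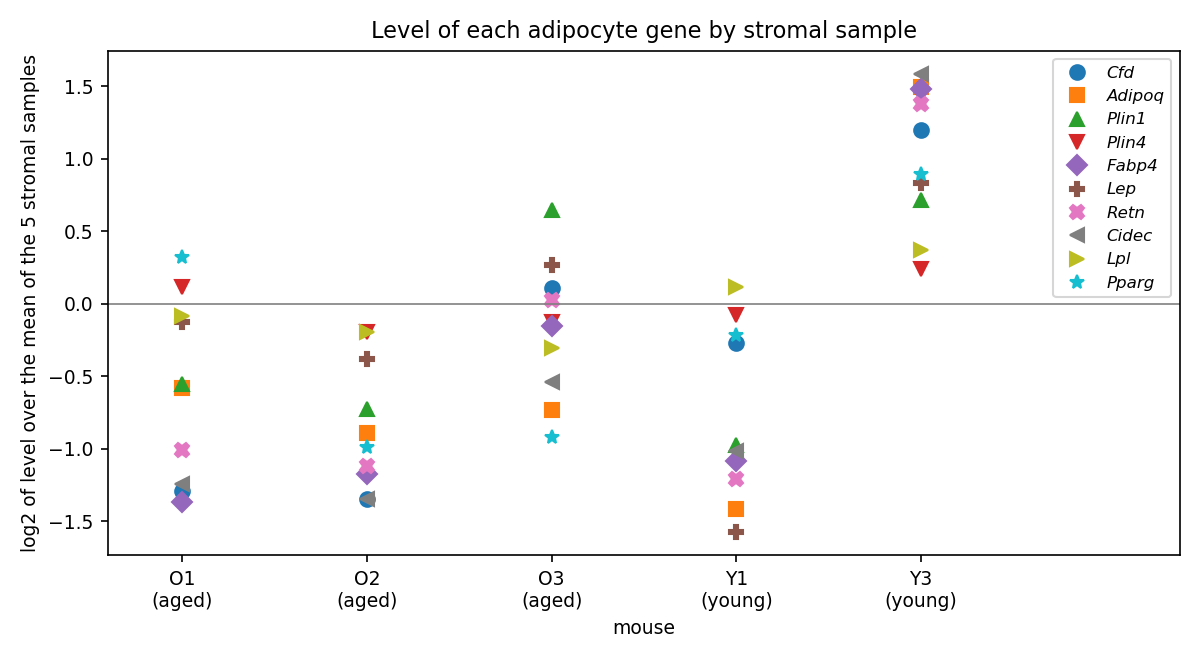
Level of each of the 10 genes in the 5 stromal samples, as log2 of its value over its mean in the 5 samples. All points of Y3 lie above 0, those of Plin4 and Lpl stay close to 0 in every sample, and Y1 lies below 0 for all genes but Lpl.

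Plin4 and Lpl varied least of the 10. Together they summed to 376, 329 and 322 normalized counts in O1, O2 and O3 and 389 and 470 in Y1 and Y3, while the other 8 genes summed to 163, 156, 343, 206 and 869 in the same order. Relative to the skeletal muscle actin gene Acta1, which had 7286 to 11282 normalized counts in stroma, the SD of the log2 ratio over the 5 samples was 0.28 for Plin4 and 0.31 for Lpl, and 0.74 to 1.34 for the other 8 genes. Relative to Adipoq it was 0.98 and 0.96 for Plin4 and Lpl, 0.83 for Cfd, 0.78 for Plin1, 0.77 for Pparg and 0.64 for Lep, and 0.45 for Cidec, 0.46 for Retn and 0.53 for Fabp4. Without any ratio, the SD of the log2 level was already 0.18 for Plin4 and 0.27 for Lpl. Their small SD relative to Acta1 therefore does not show that they followed Acta1. The choice of Acta1 was made after the values had been seen, and with 5 samples the ratios are a description only.

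By the same measure, the genes whose pattern over the 5 stromal samples was most like that of Adipoq were sought among 14783 genes with a mean of at least 1 normalized count in stroma. Cidec had rank 2 of all of them, Retn came at rank 3, Fabp4 at rank 12, Lep at rank 39, Pparg at rank 95, Plin1 at rank 102, Cfd at rank 164, Lpl at rank 622 and Plin4 at rank 733. The 10 nearest genes outside the set were Reep6, Gk, Arxes2, Tenm4, Cebpa, Gm12799, Mmd, Gm12258, Zcchc10 and Orm1, with SDs of the log2 ratio from 0.43 upward. Reep6 had 2.04, 1.15, 1.64, 1.55 and 5.48 normalized counts in O1, O2, O3, Y1 and Y3, and was a DEG lower in stroma (log2 fold change -1.08, adjusted p = 0.0275). Gk, Tenm4, Cebpa and Gm12799 were also lower in stroma, whereas Arxes2 (3.87, adjusted p = 5.87e-06), Orm1 (2.68, adjusted p = 0.00503) and Mmd (1.88, adjusted p = 0.00128) were higher in stroma by edgeR, as Adipoq was, and Gm12258 and Zcchc10 were not called.

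Some other values were also highest in Y3. Its stroma had 41308 genes with at least 1 count, against 20115 to 34224 in the other 4, at a similar total. The 6 mesothelium genes summed to 73.0 normalized counts in Y3 and 69.6 in Y1, against 9.28, 16.9 and 50.9 in O1, O2 and O3, and the 6 thyroid genes to 10.9 in Y3 against 2.64 to 6.18, with 1 to 3 of the 6 at 0 in each sample. The lists of cartilage (9.26 against 2.91 to 7.79) and of developing T cells of the thymus (7.53 against 1.68 to 5.43) were also highest in Y3, at levels of a few normalized counts. The 12 skeletal muscle genes summed to 53190 in Y3, within the range of 42353 to 76538 of the other samples. Endothelium (9 genes, 96.9 in Y3 and 39.2 to 131 in the others) and macrophages (9 genes, 161 and 143 to 319) were not highest in Y3, and no gene of either list was at 0 in a stromal sample. Their part in the level of the adipocyte genes was not tested.

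**Figure D4:**
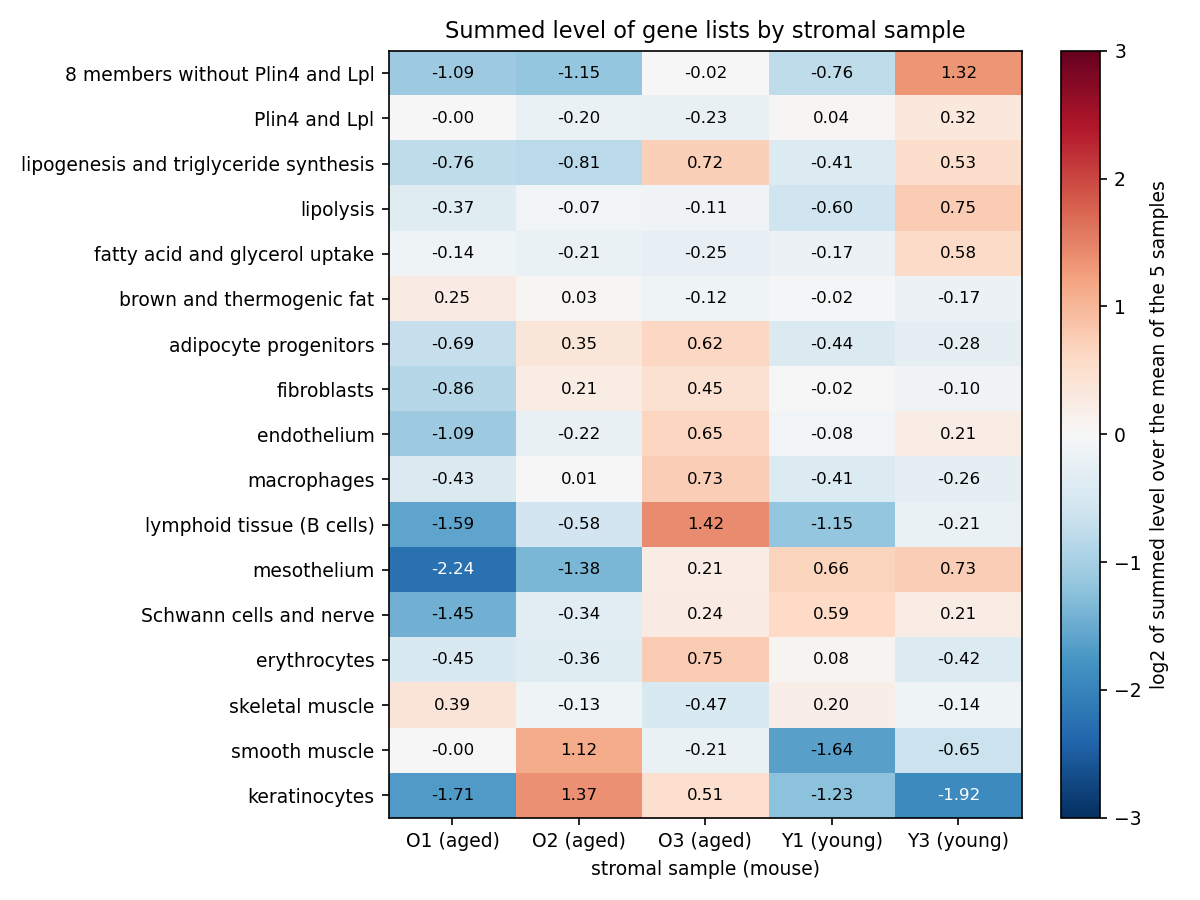
Summed normalized count of each gene list in each stromal sample, as log2 of its ratio to the mean of the 5 samples. The 8 genes without Plin4 and Lpl stand at 1.32 in Y3 and -1.15 in O2, Plin4 and Lpl between -0.23 and 0.32, and the B cell list at 1.42 in O3.

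Age was compared in stroma between 3 aged and 2 young samples, and no adipocyte gene was called. The count was also 0 of 21323 genes tested (0% called in either direction, edgeR), and 3.64% of these (776) had an unadjusted p under 0.05, as did 4 of the 10 adipocyte genes. All 10 estimates were lower in aged stroma, with a median log2 fold change of -1.03 beside -0.01 over all genes tested. Cidec was at 20.9 ± 6.77 in aged (SD, n = 3) and 73.0 ± 74.1 in young stroma (SD, n = 2), and its log2 fold change was -1.81 (SE 0.58, unadjusted p = 0.0115, adjusted p = 1, edgeR). The same fit gave -1.51 for Fabp4 (SE 0.61, unadjusted p = 0.0326), -1.41 for Adipoq (SE 0.61, unadjusted p = 0.0425) and -1.32 for Cfd (SE 0.50, unadjusted p = 0.0260), each with an adjusted p of 1. Retn (-1.20, SE 0.70) and Pparg (-0.86, SE 0.77) had wide errors, and Plin1, Plin4 and Lep lay within 0.19 of 0.

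These estimates turned on the young mice. With Y3 left out, the estimates for Adipoq, Fabp4, Retn, Plin1 and Lep changed sign (0.65, 0.26, 0.58, 0.87 and 1.48), Cidec was at -0.01 and Cfd at -0.43. With Y1 left out, Adipoq, Cfd, Cidec and Fabp4 were called lower in aged stroma, with Cidec at -2.60 and Fabp4 at -2.30 (both adjusted p = 8.68e-08 by edgeR, with the lone young sample assumed to vary like the aged ones). Lpl was the only one of the 10 whose age groups did not overlap, at 183 to 213 in aged and 245 and 292 in young stroma, where 14% of all genes tested had aged below young without overlap and 6.57% had aged above young. Its log2 fold change was -0.45 (SE 0.22, unadjusted p = 0.0685, adjusted p = 1 by edgeR) and ran from -0.59 to -0.35 as each sample was left out.

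Sums of some lists of other cell types were also set beside age in the same 5 samples, with no gene called. Mesothelium summed to 9.28 to 50.9 normalized counts in aged and 69.6 to 73.0 in young stroma, with a median log2 fold change of -1.48 over its 6 genes. Smooth muscle (5 genes) summed to 816 to 2051 in aged and 303 to 600 in young stroma. Keratinocyte genes (7) summed to 53.1 to 447 in aged and 45.8 to 74.0 in young stroma. Here the ages overlapped, with aged O1 below young Y1 and O2 the highest. All genes of these 3 lists had counts in all 5 samples, and their part in the age estimates was not tested.

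Whether the age difference of the adipocyte genes differed between stroma and epithelium was asked in the 10 samples from mice that gave both layers. No adipocyte gene was called, and 0% of the 22771 genes tested were (edgeR). None of the 10 had an unadjusted p under 0.05, against 4.3% of all genes. Estimates ran from -2.14 (SE 1.68) for Cidec to 0.66 (SE 1.43) for Plin1, with errors too large to bound a difference for genes near 0 in epithelium.

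In epithelium, the residual counts of the genes at or near the detection limit were few and uneven. Cfd, Adipoq, Plin1, Lep, Retn and Cidec together had 78 counts over the 9 samples, of which 61 (78.2%) were in O1 (37) and Y3 (24). OF5, YF5 and YM4 had 0, where 3 counts would correspond to 1.03 to 1.25 normalized counts. The epithelia of O1 and Y3 also had the most genes with at least 1 count. These were 38332 and 39907 genes, against 16695 to 31264 in the other epithelia. Plin4, Lpl, Fabp4 and Pparg had 603, 516, 248 and 212 counts in epithelium. In O3, which had the highest epithelial Acta1 of the 5 mice with both layers (223 normalized counts), Cfd had no epithelial count, while Lpl was at 5.05 normalized counts. YF5 had the highest epithelial Acta1 of all 9 samples (367) and the highest epithelial Lpl (9.58), and also no count of Cfd. These values were chosen after the data had been seen, and carry-over of stromal RNA was not tested.

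Of 17 paralogs of the 10 genes, 11 were tested, and 4 were higher in stroma and 4 lower, beside 30.1% and 26.1% of all genes tested. Fabp5, the keratinocyte fatty acid carrier, had a stromal level of 8.57 ± 8.04 normalized counts (SD, n = 5) against an epithelial level of 682 ± 177 (SD, n = 9), and its log2 fold change was -6.31 (SE 0.58, adjusted p = 2.17e-08 by edgeR), which is opposite in sign to Fabp4. Fabp3, the muscle form, rose with Fabp4 in stroma (5.05, SE 0.54), as did the perilipin of oxidative tissue Plin5 (5.30, SE 0.76). Plin2, the perilipin of most cell types, had 22.7 ± 1.75 in stroma and 24.5 ± 5.57 in epithelium and was not called. Ppara and Ppard were both DEGs lower in stroma, at -0.99 (SE 0.25) and -0.50 (SE 0.14). Reads shared between paralogs may have been divided by the counting, whose settings for such reads are not given in the sources used here.

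**Figure D5:**
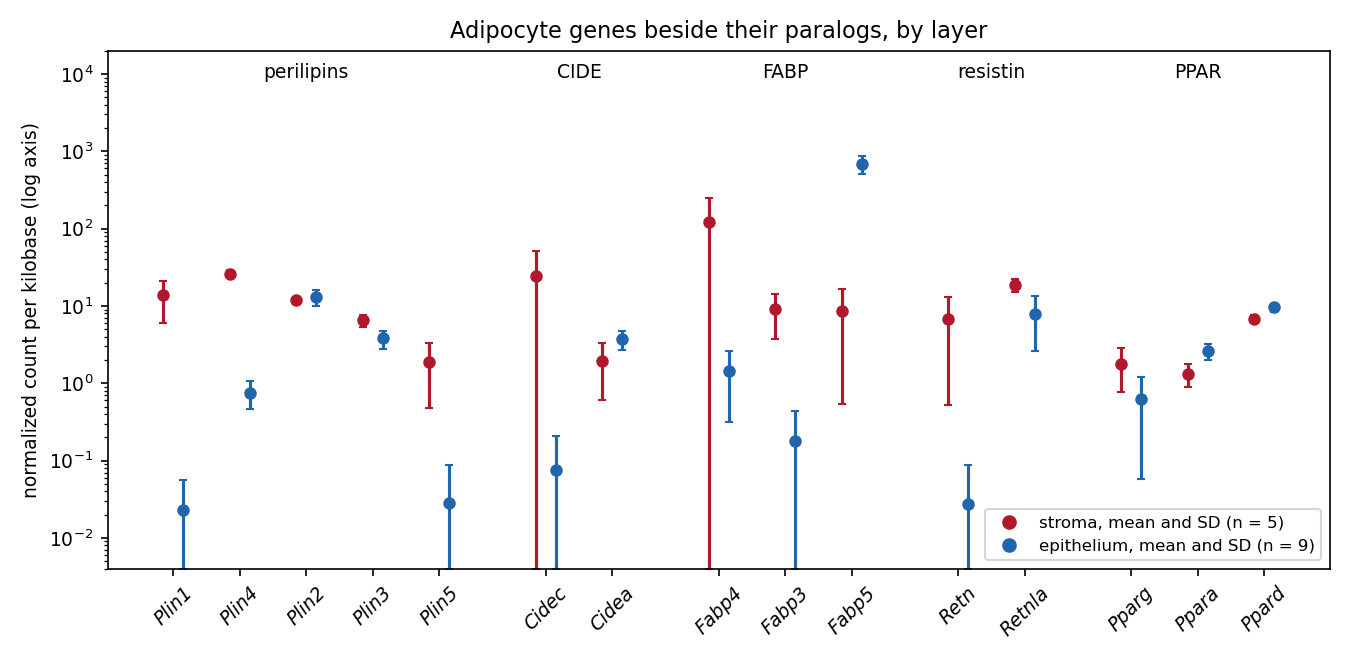
Normalized count per kilobase of principal transcript (log axis) of adipocyte genes and their paralogs, as mean and SD over 5 stromal and 9 epithelial samples; a bar that reaches the lower edge extends below the axis. Fabp4 and Fabp5 are reversed between the layers, at 122 and 8.68 in stroma and 1.46 and 691 in epithelium, and Plin2 is level in both.

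Genes that act beside the 10 in fat were described by role, and the counts of each list stand beside 30.1% of all genes tested that were higher in stroma and 26.1% that were lower. Of 14 other secreted products, 12 were tested and 9 were higher in stroma, with a median log2 fold change of 3.03. They included Hp (haptoglobin, 5.28, SE 0.72), Sfrp5 (a Wnt inhibitor, 4.92, SE 0.58), Agt (angiotensinogen, 4.39, SE 0.57) and Rbp4 (the retinol carrier, 4.21, SE 0.62). C1qtnf1 was not called (-0.30, SE 0.24). Of the other lipid droplet genes, 7 of 11 tested rose in stroma and Bscl2, encoding seipin, fell (-1.65, SE 0.22). Fitm1, a droplet-forming protein of striated muscle, had a log2 fold change of 7.01 (SE 0.54), and G0s2, an inhibitor of the lipase ATGL, of 4.90 (SE 0.32).

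Of the uptake genes, 5 of 10 tested were higher in stroma and 3 lower, the latter close to the share over all genes. The insulin-responsive glucose transporter Slc2a4 (4.09, SE 0.24), the lipoprotein receptor Vldlr (3.19, SE 0.25) and the fatty acid translocase Cd36 (2.63, SE 0.32) were higher in stroma. The glycerol channel Aqp3 (-6.81, SE 0.51), Fabp5 and the fatty acid transporter Slc27a4 (-3.32, SE 0.18) were lower. Aqp7, the glycerol channel of adipocytes, had 2.49 ± 1.61 in stroma and 0.107 ± 0.153 in epithelium and was left out by the filter on low counts. Gpihbp1, the endothelial anchor of lipoprotein lipase, was also left out, at 1.09 ± 1.21 and 0.0778 ± 0.0887.

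Of the lipogenesis genes, 10 of 17 tested were higher in stroma and 5 lower, the latter again close to the share over all genes. Pck1 (7.26, SE 0.58), Thrsp (6.61, SE 0.45), Gpd1 (6.55, SE 0.47), Acacb (5.51, SE 0.23) and Scd1 (5.27, SE 0.40) were higher in stroma, of which Pck1 and Gpd1 supply glycerol phosphate, Scd1 desaturates fatty acids, Thrsp promotes lipogenesis and Acacb is the acetyl-CoA carboxylase of muscle. Elovl6, an elongase, was lower (-3.64, SE 0.50), as was Dgat2, which makes triglyceride (-2.44, SE 0.25). Fasn, the fatty acid synthase, ranged from 83.5 to 615 normalized counts and Scd1 from 75.6 to 656 between stromal samples. The list summed to 1777 in O3 and 1551 in Y3, against 613 to 810 in the other 3, so that O3 and Y3 were the high samples here too.

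Of the lipolysis genes, 9 of 10 tested rose in stroma and Abhd5, the activator of ATGL, fell (-1.63, SE 0.20), with a median over the list of 2.83. Adrb3, the beta-adrenergic receptor of fat, rose most (5.38, SE 0.56), and Pnpla2, encoding ATGL itself, had 82.8 ± 38.9 in stroma and 11.4 ± 2.77 in epithelium (2.83, SE 0.23). Lipe, the hormone-sensitive lipase, had the smallest rise (0.77, SE 0.23). The list summed to 321 in Y3 against 126 to 182 in the other stromal samples.

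Of the adipogenic transcription factors beside Pparg, 10 of 15 were higher in stroma and Cebpa was lower, with 16.8 ± 9.28 normalized counts in stroma and 48.0 ± 11.7 in epithelium (-1.52, SE 0.26, adjusted p = 5.61e-05 by edgeR). Mlxipl, encoding the glucose-sensing ChREBP, had the highest log2 fold change (5.41, SE 0.37), followed by Rxrg (3.82, SE 0.66), Nr1h3 (3.37, SE 0.34), Zfp423 (3.24, SE 0.22), Klf15 (2.93, SE 0.18) and Ebf2 (2.72, SE 0.42). Rxra, a partner of PPARgamma, was not called (-0.22, SE 0.17), with 48.9 ± 8.22 and 56.7 ± 11.2 normalized counts, nor was Cebpb (0.05, SE 0.22). Of these 15 genes, 1 was highest in Y3 and 8 were highest in O3. Over all 16791 genes tested, Y3 was highest for 14.4% and O3 for 26.2%. All 10 adipocyte genes were highest in Y3.

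The receptors for adipokines and insulin were higher in stroma for 5 of 8 genes, with a median log2 fold change of 0.72. Irs1 was at 2.78 (SE 0.18), Lepr, the leptin receptor, at 1.05 (SE 0.28), Insr at 0.998 (SE 0.13) and Adipor1, an adiponectin receptor, at 0.64 (SE 0.17). Adipor2 was not called, with 57.7 ± 9.86 in stroma and 55.5 ± 8.08 in epithelium. Cap1, a receptor proposed for resistin, was lower in stroma (-0.71, SE 0.25).

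Of the genes of brown fat, 6 of 8 tested were higher in stroma. Cox8b had a log2 fold change of 7.23 (SE 0.36), Zic1 of 5.78 (SE 0.60), Cpt1b of 4.67 (SE 0.82) and Ucp1, the uncoupling protein that defines thermogenic fat, of 4.59 (SE 0.61). Cox8b, Cpt1b and Ppargc1a are also made by striated muscle. Ucp1 had 0.700, 3.74, 11.02, 1.75 and 2.32 normalized counts in O1, O2, O3, Y1 and Y3, so that O3 and not Y3 was the highest. Cidea was not called, at 2.19 ± 1.504 in stroma and 4.15 ± 1.12 in epithelium. Prdm16 did not rise in stroma either, at 0.528 ± 0.289 normalized counts per kilobase there and 0.904 ± 0.405 in epithelium (SD).

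Adipocyte progenitor markers were higher in stroma for 5 of 10 genes tested and lower for F3 (-4.14, SE 0.61) and Cd24a (-1.76, SE 0.24). Pi16 (1.95, SE 0.29), Pdgfrb (1.15, SE 0.27), Pdgfra (1.05, SE 0.21) and Cd34 (0.99, SE 0.23) rose. Pdgfra is shared with fibroblasts. The 12 genes summed to 116, 239 and 289 normalized counts in O1, O2 and O3 and 138 and 154 in Y1 and Y3, so that Y3, the highest sample for the adipocyte genes, was not high for the progenitor genes. In none of the lists of fat genes was a gene called by age in stroma. The unadjusted p was under 0.05 by edgeR for 2 of 13 secreted, 1 of 11 droplet, 1 of 12 uptake, 1 of 11 lipolysis and 2 of 11 progenitor genes. It was so for 0 of 18 lipogenesis, 15 transcription factor, 8 receptor and 11 brown fat genes, and for 3.64% of all genes tested.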

How the data were processed

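Bulk RNA-Seq of 14 samples from 9 mice was analysed. The authors prepared oligo(dT)-selected mRNA, mapped the reads with Rsubread (genome GRCm38.p6) and obtained gene counts by featureCounts. They deposited whole-number counts for 55291 genes per sample without normalization. The annotation release and the settings for strand and for reads matching several genes are not given in the sources used here.

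The labels gave each sample's layer, age and mouse. The test was the quasi-likelihood test of edgeR 4.0.16, run in R 4.3.3 (TMM, filterByExpr with a minimum count of 10, robust estimateDisp and glmQLFit), with Benjamini-Hochberg adjustment over all genes tested and a threshold of 0.05. The layers were compared in all 14 samples without a covariate, age in the 5 stromal samples, and the interaction in the 10 samples of mice with both layers. The standard error is the log2 fold change over the square root of F. Because both layers of a mouse come from the same animal (correlation of deviations 0.0422 to 0.1405), mouse was also fitted as a block. Age groups in stroma differ by animal, and the p-values of that test measure the spread between animals. The main layer and interaction fits took the samples as independent, although 10 of them are paired layers of the same mice. Their p-values measure the spread between samples and not between animals alone.

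The 10 genes and the lists were chosen with earlier results of these data known. All 10 are named, and from each list up to 6 called genes with the largest fold change and up to 2 uncalled genes with the highest level. Gene positions and transcript lengths came from GENCODE M21 (53292 of 55291 symbols matched). Likeness to Adipoq used 0.5 counts added to both genes. The procedure was tested on simulated data. Alternatives were DESeq2 1.42.0, other filters, size factors and covariates, subsets of samples, a block for mouse, and each sample left out. Tusc5 was not among the symbols. Tests and floors leave out the loss of molecules before sequencing.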

Additional observations from a re-analysis of the deposited data

Results flagged for a closer look

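In 9 of 30 groups of 4 or 5 samples tested, 1 sample stood away from the others by Dixon's criterion. In stroma these were Adipoq in Y3, at 76.2 normalized counts with the next sample at 18.1, and Cidec in Y3, at 125 with the next at 28.7, and for such groups chance meets the criterion in about 1 of 20. In aged epithelium they were Adipoq (0.0872), Lep (0.145) and Retn (0.0872) in O1, from 3, 5 and 3 counts, with the other 4 samples at 0. In young epithelium they were Plin1 (0.196), Retn (0.196) and Cidec (0.164) in Y3 and Lep in Y1 (0.106), from 6, 6, 5 and 3 counts, with the other 3 samples at 0. In these 7 epithelial groups any count above 0 meets the criterion once the others are at 0, so the chance rate does not apply to them, and each value rests on 6 counts or fewer. O1 and Y3 were also the epithelia with the most genes detected. In stroma, Fabp4 and Retn were not flagged, although Y3 was 3.11 and 2.54 times the next sample for them.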

How the results depend on the processing

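Between the layers, 9 of the 10 genes kept their direction and call under every setting in which they were tested. Requiring at least 10 counts in every sample left 0 of the 10 genes in the test, and 4316 genes were called against 9441. Leaving out each sample gave 9 to 10 of the 10 higher in stroma, 0 lower and 8827 to 10093 genes called, and Pparg ran from 1.11 to 1.63. The exception, Pparg, was not called in 7 of 23 settings, among them no filter on counts (1.197), the mouse block (1.01) and a covariate for how the mouse code is written (1.18). In aged against young stroma, the 0 genes called became 2 with DESeq2, 26 without a filter, 60 in a fit of all 14 samples and 14 with the number in the mouse code as a block, and 0 to 13 with each sample left out. The 10 genes called lower were 1 without a filter (Cidec, adjusted p = 0.00491), 0 to 4 with each sample left out and 0 otherwise. With the block, which pairs samples by number only, Plin1 was 0.14 and Lep 0.38. With each sample left out, Plin1 ran from -0.81 to 0.87 (0.01 without O1, 0.03 without O2), Adipoq from -2.25 to 0.65, Fabp4 from -2.30 to 0.26, Lep from -0.91 to 1.48 and Retn from -1.997 to 0.58. In the interaction, the 0 genes called became 62 with DESeq2 and 13 with all 14 samples, and 0 of the 10 were called in each setting. Lep was 0.65 with mouse as a block and Plin4 -0.34 with all 14 samples. With each mouse left out, Cfd ran from -3.05 to 0.69, Adipoq from -2.27 to 2.25 (1.79 without Y3), Lep from -4.76 to 3.64 (2.58 without Y3), Lpl from -0.86 to 0.82 (-0.05 and -0.24 without O1 and O2), Plin1 from -2.69 to 1.55 (-0.05 without O3), Retn from -2.27 to 3.62 (-0.58 without O3) and Plin4 from -0.0699 (without Y3) to 0.46. Except for the filter and the samples left out, the cause was not tested. DESeq2 gave no adjusted p for 140, 9 and 1484 genes in the 3 comparisons. Depth limits the 6 genes with 78 epithelial counts in all: no age or interaction estimate of theirs in epithelium is precise.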
